A study of Oncorhynchus mykiss with 43 samples.

Results

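Clone tcbk0020.f.18 is a rainbow trout cDNA that the study labels as COP9 signalosome complex subunit 7, after its closest known protein. It is 1 of the 9023 clones spotted on the array, and it had a value in 42 of the 43 fish analysed. The clone was chosen by its own measured values, which were lower in each later group of refed fish. Its levels are therefore given as a description without a test. The study examined fast muscle, taken under the dorsal fin, of 1-year-old rainbow trout of a spring strain during recovery from a fast of a month. All 5 groups came from fish that had been through that fast: 8 fish were sampled fasted, and the others after feeding had resumed above the normal ration, 9 of them on day 4 of refeeding, 9 on day 7, 8 on day 11 and 9 on day 36. There was no group that had never been fasted, and every group was sampled at its own water temperature, which fell over the experiment, so that days of feeding, sampling time and temperature cannot be told apart. Each fish had an array of its own, hybridised with cDNA labelled with 33P, and no RNA was pooled.

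The COP9 signalosome is a complex of the cytoplasm and nucleus that removes the small protein NEDD8 from cullins. Cullins are the scaffolds of the largest family of ubiquitin ligases, which mark proteins for the proteasome, and cycles of adding and removing NEDD8 turn these ligases on and off. Subunit 7 has no catalytic activity of its own. It is one of the subunits with a PCI domain, the fold through which the complex is assembled, and the same architecture is found in the lid of the 26S proteasome and in translation initiation factor 3 (eIF3). In wasting muscle the ubiquitin-proteasome pathway is a main route by which proteins of the myofibril are broken down. Mammals have a pair of closely related genes for subunit 7, and the clone label does not say which of them the trout clone is nearer to. A cDNA on a membrane can also hybridise to RNA of near-identical gene copies, so the values may stand for more than 1 gene.

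The arrays each listed signals of 1441 to 2616 clones, and the medians of this number by group lay between 2133 and 2372. The values are normalized intensities on a linear scale, which compare 1 clone between fish and not different clones with each other. Sarcomeric clones marked the tissue as skeletal muscle: clones of troponin C (2 clones), skeletal myosin light chain 1 and nebulin had a value in every fish, and nebulin, the ruler of the thin filament, ran between 8.56 and 18.7. Skeletal alpha actin was listed in 24 fish and in none at day 11. Where listed, it averaged 9.23 in fasted fish (n = 8), 15.5 at day 4 (n = 9), 16.6 at day 7 (n = 3) and 20.0 at day 36 (n = 4). Its empty cells therefore cannot be read as low levels, and their cause was not tested. Of the 4 clones listed in every fish, only myosin light chain 1 was called against fasted fish (limma, adjusted p under 0.0001). It was higher at days 11 and 36, with log2 changes of 0.54 and 0.66, beside 5% and 5.38% of all tested clones called higher. The call at day 11 held in 7 of 12 settings (adjusted p of up to 0.00341) and that at day 36 in 10 of 12 (up to 0.00216). At an adjusted p under 0.05 (limma), myosin light chain 1 was also higher at day 7 (0.39). Both troponin C clones were then higher at days 7 (0.38 and 0.33) and 11 (0.41 and 0.40), and clone 1RT73O02_C_H01 also at day 36 (0.31). Nebulin was higher at day 11 (0.46) at that threshold. Named clones were taken from figures of genes that the study had selected for differences among these same fish. Their p-values and calls, here and below, are therefore not independent evidence of a direction. The 697 clones listed on all 43 arrays had a similar median in each group. The middle array of a group had a median of 4.79 in fasted fish, 5.01 at day 4, 4.98 at day 7, 5.18 at day 11 and 4.92 at day 36.

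Subunit 7 was highest in fasted muscle, lower in each later group, and lowest at day 36 post-refeeding. In order of fish number, the 8 fasted fish had intensities of 2.45, 2.56, 1.66, 2.59, 2.04, 2.44, 2.28 and 1.90. The 9 fish refed for 4 days had 1.86, 1.93, 1.92, 1.87, 1.99, 2.34, 1.93, 2.02 and 2.24. At day 4 the fish thus lay within the range of fasted fish, in a narrower band, and every one of them was below the fasted median of 2.36. At day 7 the 9 fish had 1.73, 1.76, 1.68, 1.53, 2.15, 1.53, 1.80, 1.54 and 1.67. The 8 fish refed for 11 days had 1.78, 1.08, 1.62, 1.57, 1.27, 2.24, 1.14 and 1.87. Fish at day 7 were close together except for fish 6 at 2.15, whereas fish at day 11 spread from values of fasted muscle to values of day 36. At day 36 the 8 fish with a value had 0.791, 0.836, 0.655, 0.998, 1.04, 1.16, 1.01 and 1.14, and the cell of fish 3 was empty.

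**Figure D1:**
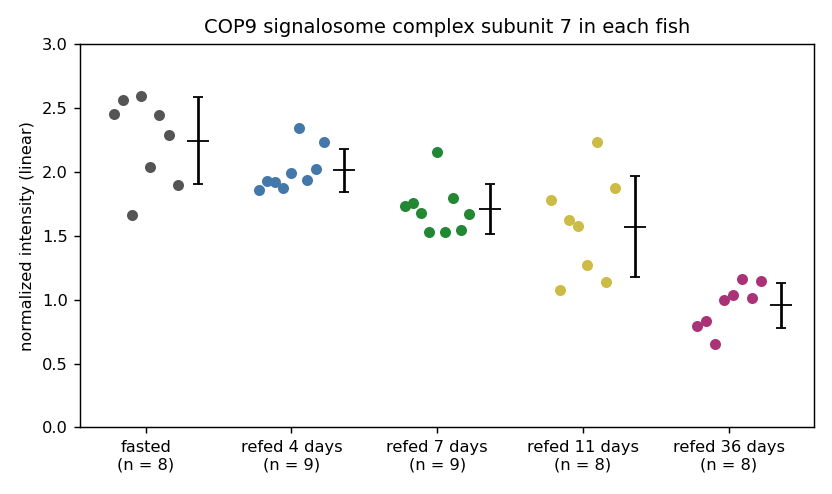
Normalized intensity (linear axis) of the subunit 7 clone in each fish, by group; each point is 1 fish, and the bars beside the points are the mean ± SD. The 8 fish at day 36 lie between 0.655 and 1.16, below every fasted fish and every fish at days 4 and 7.

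The group means followed the same order. Subunit 7 averaged 2.24 ± 0.341 in fasted fish (SD, n = 8), 2.01 ± 0.168 at day 4 (n = 9), 1.71 ± 0.195 at day 7 (n = 9), 1.57 ± 0.397 at day 11 (n = 8) and 0.954 ± 0.177 at day 36 (n = 8). As these arrays hold the RNA of whole muscle, fewer cells that express the gene and less of its RNA per cell cannot be told apart. On the log2 scale the change against fasted fish was -0.14 (SE 0.12) at day 4, -0.38 (SE 0.12) at day 7, -0.54 (SE 0.12) at day 11 and -1.24 (SE 0.12) at day 36. At day 36 the level was thus 2.36 times lower than in fasted fish, a reduction of 57.7%. These 4 changes share the same 8 fasted fish. The SE comes from 1 limma fit of log2 values over all 43 arrays.

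The ranges of all neighbouring groups overlapped, to different degrees. None of the 9 fish at day 4 was below the lowest fasted fish. Of the 9 fish at day 7, 8 were below the lowest fish at day 4, and the change between these groups was -0.24 (SE 0.11). At day 11 against day 7 it was -0.15 (SE 0.12), and only 3 of 8 fish at day 11 were below the lowest fish at day 7. The last step was the widest, with a change of -0.70 (SE 0.12) at day 36 against day 11, and 6 of 8 fish at day 36 were below the lowest fish at day 11. The ranges of these groups met because fish 3 and 9 at day 11, at 1.08 and 1.14, fell within the range of day 36. With fasted fish and with fish at days 4 and 7 there was no overlap: the highest fish at day 36 (1.16) was exceeded 1.43 times by the lowest fasted fish, 1.60 times by the lowest fish at day 4 and 1.32 times by the lowest fish at day 7. The share of all tested clones whose ranges were apart in this way was not computed. By a different measure, limma at an adjusted p under 0.0001, 4.23% of all tested clones were called lower at day 36 than in fasted fish. At an adjusted p under 0.05 it was 22.5%. Neither figure gives the share of clones with ranges apart, so how rare such a separation was cannot be said.

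Of the total log2 change between fasted fish and day 36, 11.7% had accrued by day 4, a further 19.2% between days 4 and 7, 12.5% between days 7 and 11 and 56.6% between days 11 and 36. These intervals are unequal. Per day of refeeding the log2 change was -0.036 before day 4, -0.079 between days 4 and 7, -0.039 between days 7 and 11 and -0.028 between days 11 and 36. In the main fit the largest share thus fell in the longest interval, which also had the smallest change per day. No error was computed for these shares and rates. By differences of medians the changes against fasted fish were -0.29, -0.49, -0.57 and -1.23. The smallest change per day was then between days 7 and 11, as it was with array weights, so the order of the rates depends on the setting. A filter that asked for at least 5 fish with a value in each group left 1561 of the 4609 clones with a value on any array. Of these, 379 had a lower log2 change than subunit 7 at day 4, 64 at day 11 and 6 at day 36. Against fish refed for 4 days, 1 clone had a lower change at day 36 than subunit 7, whose change was -1.10 (SE 0.12). These places describe a clone that was chosen for its fall. Clones that were no longer listed in enough fish at day 36 were outside the ranking.

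The fish of a group varied to different degrees. The coefficient of variation was 15.2% in fasted fish, 8.38% at day 4, 11.4% at day 7, 25.3% at day 11 and 18.6% at day 36. The SD of log2 values at day 11 was 0.37, larger than that of 89.8% of the tested clones, whose median SD in this group was 0.21. At day 4 the SD was 0.12, and 11.2% of the tested clones had a smaller one. The highest fish at day 11 (fish 7, 2.24) had 2.08 times the level of the lowest (fish 3, 1.08).

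The rank of the clone's value within its own array moved in the same way. A rank does not depend on how arrays were scaled to each other. It does come from the same values for whose fall the clone was chosen, so it is a description and no independent support. It also sets different clones beside each other, so only its shift between fish is described, not the amount of RNA. In the median fasted fish 49.4% of the values listed on the array were below that of subunit 7. The median share was 46.4% at day 4, 35.9% at day 7, 33.2% at day 11 and 13.3% at day 36. The clones listed differ from array to array. Among the 697 clones listed on all arrays, the median share below subunit 7 was 15.1% in fasted fish, 10.5% at day 4, 5.60% at day 7, 4.16% at day 11 and 0.574% at day 36. This fixed set holds clones with high values: in fasted fish 2, for example, its median was 4.85, against 2.58 for all values listed on that array. Within this set the clone was near the low end in fasted fish already, and lower in each later group. Among all listed values it was near the middle in fasted fish. In fish 2 at day 36 the share among all listed values was 0.208%, so that the clone had almost the lowest value listed, on the array with the fewest values (1441).

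**Figure D2:**
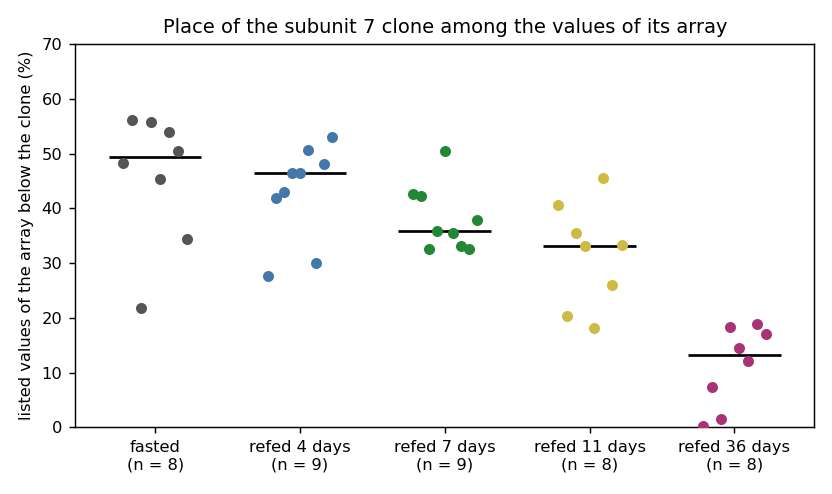
Share of the values listed on an array that were below the value of the subunit 7 clone (%), 1 point per fish; horizontal lines are group medians. The median share is 49.4% in fasted fish and 13.3% at day 36, where all fish are at or below 18.9%.

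At this low end, cells were often empty. Of the 153 tested clones whose level at day 36 was in the range of subunit 7, 15.7% had no value in fish 3, the fish in which subunit 7 was empty, although its array listed 2140 clones. In fish 2 of the same group 70.6% of these clones were empty, while subunit 7 was listed at 0.791. Whether the empty cell in fish 3 stands for a low level or for a spot that was excluded is not known. The mean at day 36 leaves that fish out.

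Of the other subunits of the complex, subunits 2, 3 and 8 are labelled by clone in the study. Subunit 8, a small PCI protein of the same complex (tcay0005.g.21), was the one of these 3 that could be tested. Its lowest, median and highest intensities were 1.31, 1.84 and 2.45 in the 8 fasted fish, 1.29, 1.45 and 1.82 at day 4 (n = 8), 1.32, 1.58 and 2.03 at day 7 (n = 9), 1.22, 1.51 and 1.90 at day 11 (n = 8) and 1.06, 1.20 and 1.71 at day 36, where 5 of 9 fish had a value. The ranges of all refed groups overlapped with that of fasted fish. At day 36 the overlap came from fish 3 alone (1.71), the fish in which subunit 7 had no value, and the other 4 fish, at 1.06 to 1.29, were below the lowest fasted fish. The matching share over all tested clones was not computed, so this separation cannot be judged as particular to the clone. The log2 change of subunit 8 was -0.29 at day 4, -0.17 at day 7 and -0.23 at day 11, with adjusted p of 0.101, 0.301 and 0.141 (limma, Benjamini-Hochberg adjustment over all 1561 clones). At day 36 it was -0.53 (SE 0.13, adjusted p = 0.00179), which passed a threshold of 0.05 and missed the threshold of 0.0001 used for calls. Since the study had selected this clone on the same fish, its p-values are not independent evidence of a fall. Whether the change of subunit 7 differed from that of subunit 8 was not tested, because subunit 7 was selected on its change.

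Subunits 2 and 3 gave too few values for a test. Subunit 2, a PCI subunit that contacts the cullin, was listed in 3 fasted fish at 0.783, 0.866 and 0.880, and in no refed fish. Subunit 3, another PCI subunit, was listed in 9 fish. It stood at 12.01 in 1 fasted fish, and averaged 2.87 ± 0.178 at day 4 (SD, n = 3), 2.48 ± 0.340 at day 7 (n = 3) and 2.07 ± 0.511 at day 11 (n = 2), with no value at day 36. The single fasted value lay far above the rest. Cullin-3 (tcbk0016.m.08), a substrate of the complex, was listed in 5 fasted fish, 5 fish at day 4, 2 at day 7, 3 at day 11 and 1 at day 36, with means of 2.77, 2.27, 2.26, 2.00 and 1.98 in that order of groups. Ankyrin repeat and SOCS box protein 9, an adaptor of cullin-based ligases, had no value on any array in the deposited values. Since the study labelled it in a figure of selected genes, its empty row cannot be read as absence of signal.

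Of the relatives of the complex in the proteasome lid, 2 could be tested. Non-ATPase subunit 12 (1RT28O12_C_H06), a PCI protein, averaged 1.84 ± 0.238 at day 4 (SD, n = 9), 1.86 ± 0.280 at day 7 (n = 9), 1.92 ± 0.252 at day 11 (n = 8) and 1.54 ± 0.230 at day 36 (n = 7), against 2.44 ± 0.701 in fasted fish (n = 8). Its log2 changes were -0.37 (adjusted p = 0.0353), -0.36 (0.0287), -0.30 (0.0637) and -0.63 (0.000135, limma with Benjamini-Hochberg adjustment). This subunit was thus already lower at day 4 at a threshold of 0.05 and was not called at 0.0001 at any time. It too was named from genes that the study had selected on these fish, so the direction is not independently tested. Non-ATPase subunit 7 (tcav0003.b.14), an MPN protein of the lid, had log2 changes of -0.36, -0.26, -0.42 and -0.30, so that its 36-day change was not its lowest. Non-ATPase subunit 13, the lid counterpart of COP9 subunit 7, had values in 7 fasted fish, 8 at day 4, 5 at day 7, 5 at day 11 and 1 at day 36. It was therefore not tested. Its means were 1.27 in fasted fish, 1.34 at day 4, 1.02 at day 7 and 0.980 at day 11, and the 1 fish at day 36 had 1.05.

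The eIF3 relative followed a further course. eIF3 subunit 12 (1RT60D14_D_B07), a PCI subunit of the translation factor, averaged 2.41 ± 0.289 at day 4 (SD, n = 9), 2.17 ± 0.271 at day 7 (n = 8), 2.15 ± 0.290 at day 11 (n = 8) and 1.42 ± 0.0895 at day 36 (n = 5), against 2.10 ± 0.167 in fasted fish (n = 7). Its log2 change was 0.20, 0.05 and 0.03 at days 4, 7 and 11, and it was called lower at day 36 (-0.56, adjusted p = 3.75e-05 by limma). All 5 fish with a value at day 36, at most 1.56, were below the lowest fasted fish at 1.93. Fish without a value are not part of this comparison. How many of all tested clones had ranges apart like this was not computed. The call held in 8 of the 11 settings that tested this clone, with an adjusted p of up to 0.00248. As this clone was also named from the study's selected genes, the call is not independent evidence. eIF3 subunit 8 had values in 17 fish and was not tested.

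**Figure D3:**
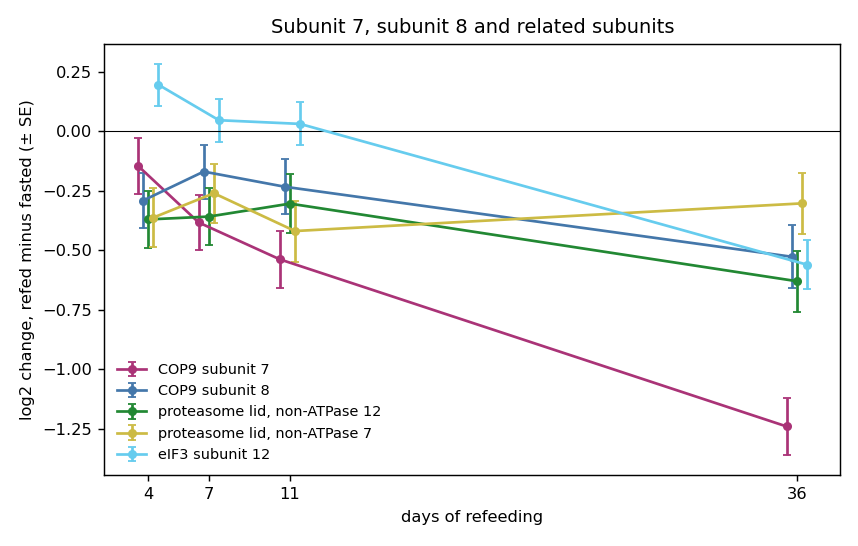
Log2 change of refed against fasted fish (± SE) at 4, 7, 11 and 36 days of refeeding for subunits 7 and 8 of the COP9 signalosome, 2 subunits of the proteasome lid and eIF3 subunit 12. Subunit 7 reaches -1.24 at day 36, and the other 4 lie between -0.63 and -0.30.

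The wider ubiquitin-proteasome list held 38 clones besides subunit 7, of which 28 had a value on some array and 15 passed the minimum of 5 fish in every group. The study labelled these clones after selecting them for differences among these very fish, and the counts are not independent evidence of a direction. It placed ubiquitin and proteasome genes in a cluster with peak expression in fasted fish. Lower values after refeeding were thus largely set by how the list was made. Of the 15 clones, 2 were called lower at day 4 at an adjusted p under 0.0001, beside 0.769% of all 1561 clones, and 0 were called higher, beside 2.43%. The count at day 7 was 2 lower (1.09% of all clones) and 0 higher (3.27%), and at day 11 it was 2 lower (1.6%) and 0 higher (5%). By day 36 it was 3 lower (4.23%) and 0 higher (5.38%). At an unadjusted p under 0.05, limma put 0 of the 15 higher at each of the 4 times. The share of all clones at that threshold was not computed, so this count has nothing to be set against. The looser threshold of 0.05 on the adjusted p gave 6 lower clones at day 4 (4.04% of all clones), 6 at day 7 (7.56%), 6 at day 11 (10.1%) and 13 at day 36 (22.5%).

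The clones called lower at each of the 4 times were ubiquitin (tcay0026.l.17), the tag itself, and the Ariadne-2 protein homolog (1RT101H16_D_D08), a RING-type ubiquitin ligase that works together with cullins carrying NEDD8. Ubiquitin averaged 8.46 ± 1.58 at day 4 (SD, n = 9) and 10.5 ± 2.33 at day 36 (n = 9), against 18.4 ± 4.39 in fasted fish (n = 8). Since several genes encode ubiquitin, this clone may report them together. Ariadne-2 averaged 1.75 ± 0.349 at day 4 (n = 7) and 1.96 ± 0.400 at day 36 (n = 8), against 5.28 ± 1.24 in fasted fish (n = 8). Both thus had their lowest mean at day 4, where the change of subunit 7 was -0.14. Proteasome subunit alpha type 5 (1RT122J24_D_E12), part of the outer ring of the catalytic core, was the third clone called at day 36, with a log2 change of -0.51 (adjusted p = 4.82e-05, limma). Ariadne-2 stayed past the threshold at all 4 times in each of the 11 settings that tested it, whereas ubiquitin did so in 10 of 12 settings at day 7, 9 at day 11 and 11 at day 36. Proteasome subunit alpha type 5 was past it in 7 of 12 settings, with an adjusted p of up to 0.00266.

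The median log2 change of the 15 clones was -0.18 at day 4, -0.18 at day 7, -0.29 at day 11 and -0.41 at day 36, beside medians over all tested clones of -0.03, -0.02, 0.01 and -0.05. A change below 0 was found in 14 of the 15 clones at day 4 and in all 15 at days 7, 11 and 36. Over all clones 55.6% were below 0 at day 4, 53.5% at day 7, 47.8% at day 11 and 56.7% at day 36. Because the study grouped such clones by their high level in fasted fish, the sign of these changes is no test. In 9 of the 15 clones the lowest of the 4 changes was that at day 36, and in 3 the change was lower at each later time, as it was for subunit 7. The matching shares over all tested clones were not computed, so these counts cannot be read as a trait of the list. At an adjusted p under 0.05 (limma), 4.04% of all tested clones were lower at day 4 and 22.5% at day 36. Of the 15, 9 had a lower change than subunit 7 at day 4, and 1 had at day 36, Ariadne-2 at -1.42. List clones with too few values, at day 36 for example, were outside this count. Since subunit 7 was chosen for its fall, its place beside the list is a description only. The proteasome-associated ECM29 homolog was listed in 7 fasted fish (mean 1.81), 1 fish at day 4, 1 at day 7 and none later. RING finger protein 24 was listed in 3 fasted fish and no refed fish. The other way, ubiquitin-conjugating enzyme E2 H was listed only at day 36, in 2 fish, and ubiquitin conjugation factor E4 only in refed fish.

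**Figure D4:**
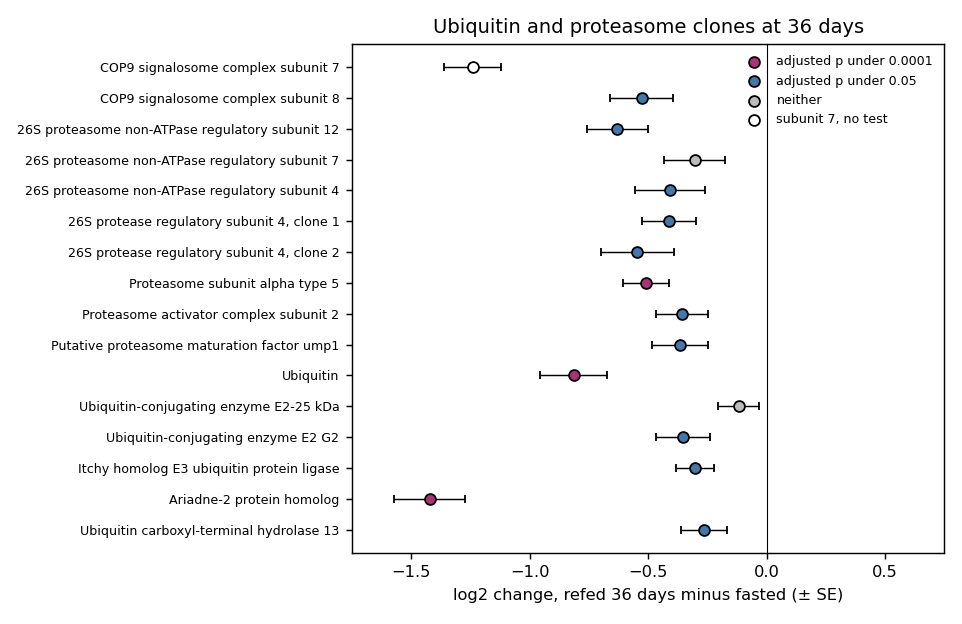
Log2 change of fish refed for 36 days against fasted fish (± SE) for subunit 7 (open point, no test) and the 15 tested clones of the ubiquitin-proteasome list; colour gives the adjusted p of limma. All 15 lie below 0, and 1 of them, Ariadne-2 at -1.42, lies below subunit 7, which was chosen for its fall. Clones of the list without at least 5 fish with a value in every group are not shown.

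The clones whose values ran most like subunit 7 over the fish were ranked by Pearson's r of log2 values, among the 1372 clones that shared at least 35 fish with it. These coefficients are descriptions, since fish of a group share feeding, sampling time and temperature. The median r was 0.17, and 90% of the clones lay between -0.55 and 0.65. The highest was tcbk0017.h.14, for which the sources used here give no gene name, with r = 0.93 over 37 fish. It averaged 1.42 ± 0.207 in fasted fish (SD, n = 7), 1.27 ± 0.0707 at day 4 (n = 9), 1.10 ± 0.139 at day 7 (n = 9), 0.976 ± 0.161 at day 11 (n = 8) and 0.735 ± 0.0603 at day 36 (n = 5). Its log2 changes of -0.15, -0.36, -0.54 and -0.94 were close to those of subunit 7 up to day 11.

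The likeness to tcbk0017.h.14 was also present among fish of the same group. With the group means taken out, r was 0.77, the highest of the 1372 clones. At day 11, where subunit 7 spread most, the 3 fish lowest in subunit 7 (fish 3, 9 and 6, at 1.08, 1.14 and 1.27) were the 3 lowest in tcbk0017.h.14, at 0.807, 0.727 and 0.907. The highest fish was the same for both, fish 7, with 2.24 for subunit 7 and 1.22 for tcbk0017.h.14. Other groups matched less closely. At day 4, fish 5 was among the lowest in subunit 7 (1.87) and among the highest in tcbk0017.h.14 (1.34). In the empty cell of subunit 7, fish 3 at day 36, this clone stood at 0.736.

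**Figure D5:**
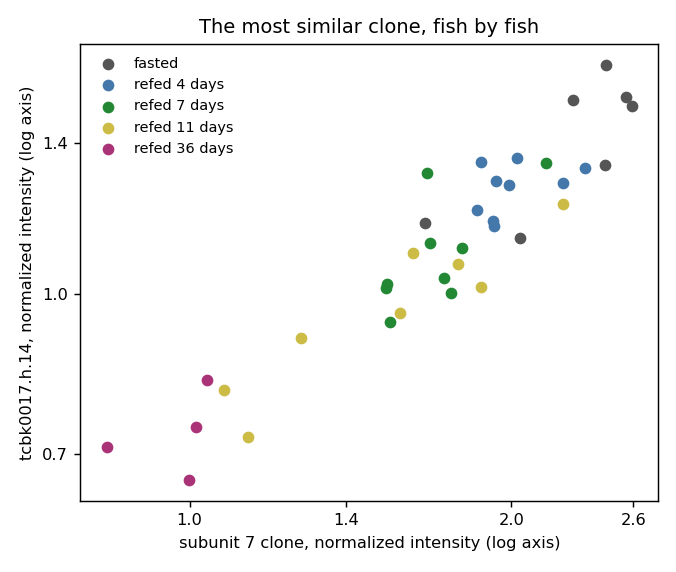
Normalized intensity of tcbk0017.h.14 against that of the subunit 7 clone in the 37 fish with both values (log axes), coloured by group. Fish at day 11 spread along the diagonal, from 1.08 and 0.807 in fish 3 to 2.24 and 1.22 in fish 7 (subunit 7 first).

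The second clone was tcbk0020.g.04, also without a gene name, with r = 0.91 over 38 fish. With the group means taken out its r was 0.57, at rank 95 of the 1372 clones. Its name places it on the same clone plate as subunit 7. The other 5 clones of that plate among the 1372 had a median r of 0.15, beside -0.08 for the 247 clones of other plates of the same library and 0.19 for the remaining 1119 clones. With the group means taken out, these medians were 0.42, 0.10 and 0.12, and 0 of the 5 were among the 20 highest on either measure. As the 20 highest are a small part of the 1372 clones, a count of 0 among 5 says little about the plate. In fish 3 at day 36, where subunit 7 was empty, tcbk0020.g.04 stood at 2.68, above the other 5 fish of its group with a value (0.578 to 0.799). That fish has no pair of values and does not enter the r of 0.91. Its value is, however, part of the day 36 mean of tcbk0020.g.04 that was taken out for the r of 0.57. Whether the position on a plate had a part in the likeness was not tested.

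Clones of the pathway ranked below both of these unnamed clones. Subunit 8 had r = 0.65 over 37 fish (rank 65 of 1372) and 0.42 within groups (rank 275). The 95th percentile of r over all 1372 clones was also 0.65. By Spearman's rho subunit 8 was at rank 117, and after quantile normalization at rank 152. The clones of 26S protease regulatory subunit 4 had r = 0.65 (1RT96M10_C_G05, rank 71) and 0.39 (tcay0027.g.06, rank 364), and the Itchy homolog had 0.61 (rank 104). Proteasome subunit alpha type 5 had r = 0.71 over 42 fish (rank 31). Ubiquitin and Ariadne-2 had r = 0.23 and 0.41. The lowest coefficients belonged to tcay0017.g.10 (r = -0.73 over 41 fish) and tcbk0052.i.13 (r = -0.73 over 42 fish), which have no gene name in the sources used here and had log2 changes of 0.51 and 0.79 at day 36. These places hold for the main scaling: after quantile normalization, which moved the median r of all clones to 0.50, tcay0017.g.10 was at rank 1333 of 1372 (r = -0.23) and tcbk0052.i.13 at rank 1371 (r = -0.39). By Spearman's rho, tcay0017.g.10 was at rank 1360.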

How the data were processed

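Total RNA of fast muscle from 43 trout was hybridised to 43 nylon arrays. The authors excluded spots with an oligonucleotide signal close to background, corrected the remaining signals for the amount of spotted DNA with a vector oligonucleotide, scaled each array to its median, and deposited the resulting intensity values on a linear scale, without a stated rule for empty cells. The medians of the listed values lay above 1, between 2.04 (fish 5 at day 4) and 3.63 (fish 2 at day 36, the array with the fewest values). The listed values are thus not centred as whole arrays scaled in this way would be, and the reason was not tested. Of 9216 rows, 193 controls were left out. Empty cells and zeros were taken as missing. Log2 values were fitted in R 4.3.3 by limma 3.58.1 with a separate mean for each group, no covariate and all arrays in 1 fit, for 1561 clones, each measured in 5 or more fish per group. Each p was adjusted by Benjamini and Hochberg within a comparison over all these clones and called under 0.0001. No p is given for the subunit 7 clone. The limma fit was tested on simulated data. Tables and plots were made with Python 3.11.15, pandas 2.3.3, numpy 2.4.6 and matplotlib 3.10.9.

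Genes were named from clone labels printed in the study, since the table pairs no clone with a gene. Those labels stand in figures of genes that the study had selected as differing among these fish. The clones named were subunit 7, other COP9 subunits, cullin-based ligases, relatives in the proteasome lid and eIF3, called clones of the ubiquitin-proteasome list, and the 2 unnamed clones with the highest and the 2 with the lowest r. The clone, the lists and the tests were chosen with earlier results of these data known. Replicate numbers in the titles were not taken to pair fish. Alternatives were other scalings, an offset of 0.1, other filters and thresholds, a fit of only the groups compared, array weights, a replicate block, the number of values as a covariate, and each fish left out. The number of arrays limits the precision. Fish numbers follow the sample titles. Each p-value sets a difference between groups against the spread between fish within groups. As each group was a single sampling, the spread between samplings enters no p-value. No sequence of the clone was available for use here.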

Additional observations from a re-analysis of the deposited data

Results flagged for a closer look

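Single fish that stood far from their group (a wide gap to the next fish relative to the whole range) were looked for in 85 groups of fish of the named clones, and 7 were found. The critical value used (Dixon, 95%) is one that chance passes in about 1 in 20 groups. For subunit 7 it was fish 6 at day 7, with 2.15, the next fish being at 1.80 and the lowest at 1.53. Without it the log2 change at day 7 was -0.43, against -0.38 with it. In related clones, non-ATPase subunit 7 of the lid stood at 2.41 in fish 7 at day 7, where the next fish had 1.36. The 26S protease regulatory subunit 4 (clone 1RT96M10_C_G05) stood at 2.01 in fish 7 at day 11, the fish that was also highest in subunit 7. Fish 3 at day 36, in which subunit 7 was empty, was low for ubiquitin (5.16, the next fish at 9.48) and for non-ATPase subunit 4 (1.44, the next at 2.34). In fasted fish, proteasome activator complex subunit 2 stood at 3.90 in fish 7 and the ubiquitin-conjugating enzyme E2-25 kDa at 2.48 in fish 3. The causes were not tested.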

How the results depend on the processing

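The subunit 7 clone was lower in each later group under all 11 settings tried, the reported one included, and no change reversed. As the clone was chosen for this order, the count is not independent support for it. A fit of only the groups compared leaves the group means as they are, so that setting could not differ. With each fish left out in turn, its log2 change against fasted fish ran between -0.20 and -0.11 at day 4, between -0.44 and -0.35 at day 7, between -0.62 and -0.47 at day 11 and between -1.30 and -1.17 at day 36. At day 36 it ran between -1.14 and -1.02 against day 4 and between -0.77 and -0.62 against day 11. Differences of medians moved the change at day 4 to -0.29 and that of day 36 against day 4 to -0.94, and quantile normalization moved this last change to -1.29. The replicate block gave -0.13, -0.37, -0.51 and -1.24 against fasted fish, and with it proteasome subunit alpha type 5 was no longer past the threshold at day 36. Deviations of 82 pairs of fish with the same number correlated with a median r of -0.0078, against -0.00044 for 657 pairs with different numbers, and the numbers were not used to pair fish.

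Of the 15 pathway clones, an adjusted p under 0.05 called 6 lower at days 4, 7 and 11 and 13 at day 36. A test of only the clones listed on all arrays, which leaves out Ariadne-2, gave 1 at days 4, 7 and 11. Quantile normalization gave 1 (Ariadne-2) at days 7 and 11, and a fit of only the groups compared gave 1 at days 7, 11 and 36. Removal of the 5 sparsest arrays, an alternative chosen after seeing the data, gave 1 at day 11. The cause of these other losses was not tested. Quantile normalization also moved the r of tcbk0052.i.13 to -0.39 and of tcay0017.g.10 to -0.23. Clones with low values were often empty at day 36, which limits what can be said of levels there. Empty cells also occurred in a clone with high values, skeletal alpha actin.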
